A study of Mus musculus with 447 samples.

Results

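Ghrelin-rich cells of the fetal mouse pancreas were selected on their levels of Ghrl, at least 500 CPM, and of Cpa1, an acinar digestive enzyme, less than 1000 CPM, where CPM is a gene's read count per 1000000 gene reads of the cell. There were 58 such cells, and the other 389 cells of the series did not qualify. They were set against 295 cells with at least 1000 CPM of Gcg and less than 500 CPM of Ghrl, called glucagon cells here. Each cell was sorted by its green fluorescence from fetal pancreas at E15.5 into its own plate well and sequenced with the full-length Smart-seq3 method on polyadenylated RNA. The titles name the genotypes Pdx1CreNeurod1OE (below, Neurod1OE) and Pdx1CreNgn3KONeurod1OE (below, Ngn3KO), and number the cells in a set 2 and a set 3, deposited as separate matrices. Set 2 holds 322 cells, 36.3% of them Neurod1OE and the rest Ngn3KO, and set 3 holds 95 Neurod1OE and 30 Ngn3KO cells. The design text writes the genotypes as Pdx1CreER;Neurod1OE and Pdx1CreER;Ngn3fl;Neurod1OE, that is, an inducible Cre recombinase under the promoter of the pancreatic gene Pdx1, with or without a deletable Ngn3 allele. Neurod1OE is therefore part of the genotype of every cell, and no genotype without it is among those analysed here. Whether each cell overexpressed NeuroD1 was not tested. The labels name neither the animals or litters behind the cells nor the meaning of the set number. A genotype in a set thus counts as 1 sample, so all differences below are descriptions of these cells with no test between genotypes, and intervals cover counting error only.

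Ghrelin is a peptide hormone best known from the stomach, and in the fetal pancreas it is made by the epsilon cells of the islet. The precursor is cut by prohormone convertase and is active only after an acyl chain has been added by the enzyme ghrelin O-acyltransferase, encoded by Mboat4. Epsilon cells arise, like the glucagon-producing alpha cells, from progenitors that briefly express Ngn3 (gene symbol Neurog3), whose direct target Neurod1 is another basic helix-loop-helix factor of endocrine differentiation.

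Basic helix-loop-helix factors such as NeuroD1 and Ngn3 bind E-boxes, spelled CANNTG, a word that reads the same on both strands. The windows from 250 bases before to 50 bases after the start of both hormone genes are shown because these genes define the compared cells, 5′ to 3′ on the minus strand, with each E-box in capitals. They come from RefSeq on GRCm38.p6, at chr6:113719862-113720161 for Ghrl and chr2:62483604-62483903 for Gcg. Ghrl has 4 such annotated windows, of which 1 is printed.
Ghrl: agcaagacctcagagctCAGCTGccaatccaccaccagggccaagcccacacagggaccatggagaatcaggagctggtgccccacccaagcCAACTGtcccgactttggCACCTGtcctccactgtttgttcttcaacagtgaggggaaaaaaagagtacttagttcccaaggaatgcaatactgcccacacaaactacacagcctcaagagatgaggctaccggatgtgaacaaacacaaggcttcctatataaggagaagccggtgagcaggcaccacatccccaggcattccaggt
Gcg: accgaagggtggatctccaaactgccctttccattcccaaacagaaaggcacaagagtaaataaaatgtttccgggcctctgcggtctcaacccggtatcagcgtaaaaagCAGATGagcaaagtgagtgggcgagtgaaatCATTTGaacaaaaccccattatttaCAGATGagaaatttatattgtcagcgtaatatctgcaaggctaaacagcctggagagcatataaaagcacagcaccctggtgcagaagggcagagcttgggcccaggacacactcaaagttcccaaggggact
Each window holds 3 E-boxes. The 3 of Ghrl are all spelled differently, whereas 2 of the 3 of Gcg share a spelling. Of 32851 windows of this length in the table, 72.3% hold at least 1 E-box and 17.6% at least 3. These are matches of letters, and binding was not measured in these cells.

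Ghrelin-rich cells were found in both genotypes of set 2 and in Neurod1OE cells of set 3. In set 2, 15 Neurod1OE cells qualified, or 12.8% of that genotype (95% Clopper-Pearson interval 7.36 to 20.3%). Of the Ngn3KO genotype 32 cells qualified, or 15.6% (10.9 to 21.3%), and the intervals overlap. In set 3 they made up 11 of 95 Neurod1OE cells, or 11.6% (5.92 to 19.8%). None of the 30 Ngn3KO cells of set 3 qualified, which allows a share of up to 10.0%. Of those 30 cells, 29 had at least 1000 CPM of Cpa1, so few could have met the definition. Glucagon cells numbered 271 in set 2, of which 100 were Neurod1OE, and 23 Neurod1OE and 1 Ngn3KO in set 3. Within set 2, cells fell into 2 kinds by whether they held at least 10 CPM of the transcript Gm12338. The ghrelin-rich share was 11.8% with it and 13.6% without it in Neurod1OE cells, and 15.7% and 15.46% in Ngn3KO cells. By Xist and Y-linked transcripts, 6 of 48 male and 9 of 64 female Neurod1OE cells of set 2 qualified. The 6 male ones were those with Gm12338 and the 9 female ones those without it, so both splits name the same ghrelin-rich cells. All 32 ghrelin-rich Ngn3KO cells of set 2 were called female, as no Ngn3KO cell there was called male. Over all ghrelin-rich cells of set 2, genotype and sex thus cannot be told apart. Those without Gm12338 were called female in both genotypes.

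Sequencing depth was similar in both kinds of cell. Over all cells the reads on genes ranged from 25769 to 2788066. The median was 367755 reads in ghrelin-rich and 417134 in glucagon cells of set 2, and 698051 and 840926 in set 3. With every cell thinned to 165076 reads, which left out 5, 27, 1 and 4 shallower cells in that order, the median number of genes detected was 7354, 7020.5, 7863 and 7689, against 8028, 7623, 8634 and 8658.5 unthinned. No 2 cells held identical values.

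The endocrine markers were present throughout. All 58 cells had at least 100 CPM of Chga, encoding the granule protein chromogranin A, and all 58 had at least 100 CPM of the islet factor Isl1. Gcg, also given as a marker of these cells, was below 1000 CPM in 5 of the 58. Transcripts of endothelial and immune cells were at or near 0, since none of the 5 markers in either list was measured in set 2 and their summed levels reached at most 30.5 and 47.4 CPM in a ghrelin-rich cell. Of 8 mesenchyme markers 1 was measured in set 2, Col1a2, at 87.1 CPM in ghrelin-rich and 137.2 CPM in glucagon cells. It was present at 10 CPM or more in 35 of 47 ghrelin-rich cells, and its source was not tested. Summed acinar transcripts ranged from 5.91 through a median of 175.8 to 6526 CPM in ghrelin-rich cells of set 2, against 0, 147.5 and 11439 CPM in glucagon cells. In set 3 these were 58.3, 353 and 8073 CPM in ghrelin-rich cells, against 0, 288 and 11326 CPM in glucagon cells. Cpa1, which is in this list, was limited in ghrelin-rich but not in glucagon cells. The comparison is thus partly set by the choice of cells. Acinar levels overlapped between the classes, and their part in the differences below was not tested.

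Ghrl itself spanned a wide range. The gene lies at chr6:113716119-113719880 on the minus strand (mm10) and overlaps the predicted genes Gm26982 and Gm44033 on the other strand. The sources used here do not give the strand setting of the counting. Reads of these genes thus cannot be told apart. In Neurod1OE cells of set 2 the lowest ghrelin-rich cell had 510 CPM of Ghrl, the median 3279 CPM and the highest 21904 CPM. In Ngn3KO cells these were 541, 3209 and 32313 CPM, and in Neurod1OE cells of set 3 they were 564, 2496 and 66866 CPM. The 2 genotypes of set 2 overlapped over nearly their whole range. These values chose the cells and carry no test.

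Glucagon cells were not free of Ghrl transcripts. In set 2 their median was 21 CPM for Neurod1OE and 22.1 CPM for Ngn3KO, and in set 3 it was 38.7 CPM for Neurod1OE. At least 10 CPM was present in 75%, 66.1% and 69.6% of them. In the Cpa1-rich Ngn3KO cells of set 3, a cell type not known for making ghrelin, 16 of 29 also held at least 10 CPM of Ghrl, with a median of 12.2 CPM. The limit of 500 CPM cut through a thin part of a continuous range, with 13 cells at 250 to 500 CPM, 15 at 500 to 1000 CPM and 12 at 10000 CPM or more. The cells just inside the limit had 510, 515 and 527 CPM among Neurod1OE and 541, 570 and 604 CPM among Ngn3KO cells of set 2, and 564, 728 and 1023 CPM in set 3. Just outside lay 460, 275 and 160.5 CPM, then 496, 466 and 457 CPM, and 414, 356 and 272 CPM.

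**Figure D1:**
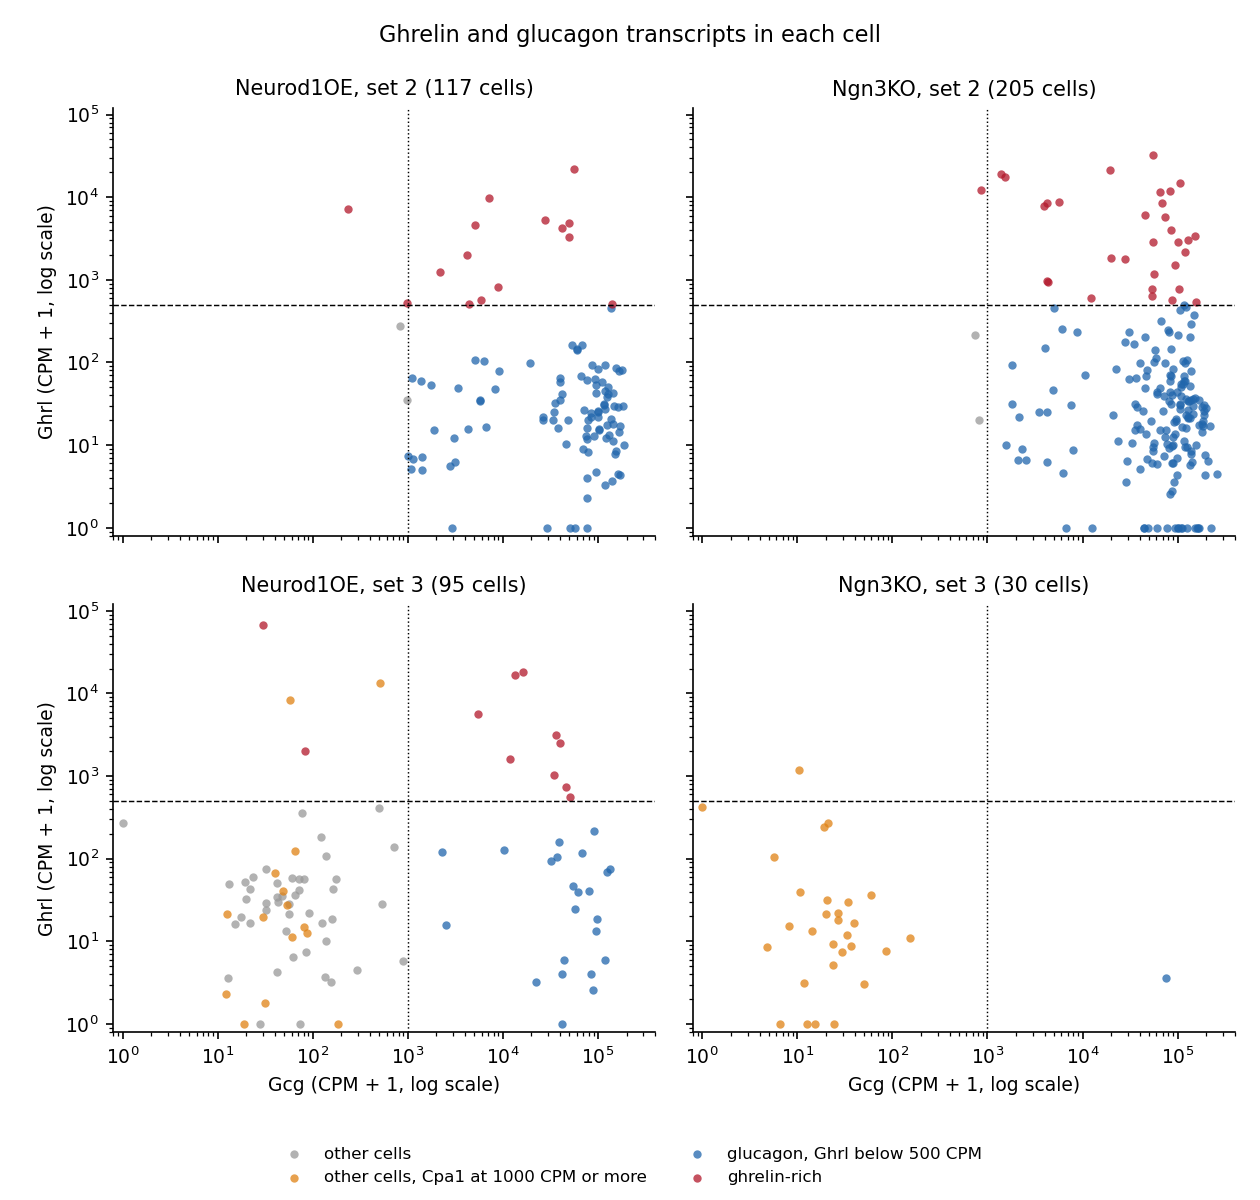
Ghrl against Gcg in every cell of each genotype and set, in CPM on log axes, with the limits that define the classes as lines. Ghrelin-rich cells, at 510 to 66866 CPM of Ghrl, are spread over almost the whole range of Gcg, and the panel of Ngn3KO cells of set 3 holds none.

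Most ghrelin-rich cells carried more glucagon than ghrelin transcript. Gcg was above Ghrl in 44 of the 58 cells, and Ghrl was the most abundant transcript in only 4. The median rank of Ghrl among the genes of a cell was 15, and it was among the top 10 in 27 cells. Gcg reached 10000 CPM in 38 cells and Ghrl in 12. By hormone content these were thus mostly cells with 2 or more islet hormones, and none of the 58 lacked all of Gcg, Pyy, Ppy, Sst and insulin at 1000 CPM.

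Gcg was present but lower. In Neurod1OE cells of set 2 it ran from 232 CPM through a median of 7089 CPM to 139382 CPM in ghrelin-rich cells. In Ngn3KO cells it ran from 846 through 55221 to 157556 CPM, and in set 3 from 28.7 through 16489 to 50415 CPM. The median glucagon cell held 85236 CPM in set 2 and 59727 CPM in set 3. The ranges overlapped widely, and part of the gap is set by the choice of classes, since glucagon cells had to hold Gcg. With the reads of each class summed, the log2 ratio of ghrelin-rich over glucagon cells, with 1 CPM added to both, was -0.87 in set 2 and -1.56 in set 3.

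The most common second hormones were Gcg and Pyy, and most glucagon cells held Pyy as well. At 1000 CPM or more, Gcg was held by 44 of 47 ghrelin-rich cells of set 2 (93.6%) and 9 of 11 of set 3 (81.8%). Pyy, encoding peptide YY, was held by 41 of 47 (87.2%) and 11 of 11, against 96.3% and 91.7% of glucagon cells. Ppy, encoding pancreatic polypeptide, was held by 8 of 47 (17%, interval 7.65 to 30.8%) and 1 of 11, against 25.8% and 20.8% of glucagon cells. Iapp, encoding the beta cell peptide amylin, was held by 22 of 47 (46.8%) and 4 of 11 (36.4%), against 61.6% and 45.8%. Insulin transcripts passed the limit in 1 of 58 cells, against 4.80% and 4.17% of glucagon cells. Sst, the hormone of delta cells, and the peptides Npy and Cck passed it in none of the 58. For Sst that allows a share of up to 6.38% in set 2 and 27.3% in set 3, so no difference from the 0.738% of glucagon cells in set 2 was detectable.

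**Figure D2:**
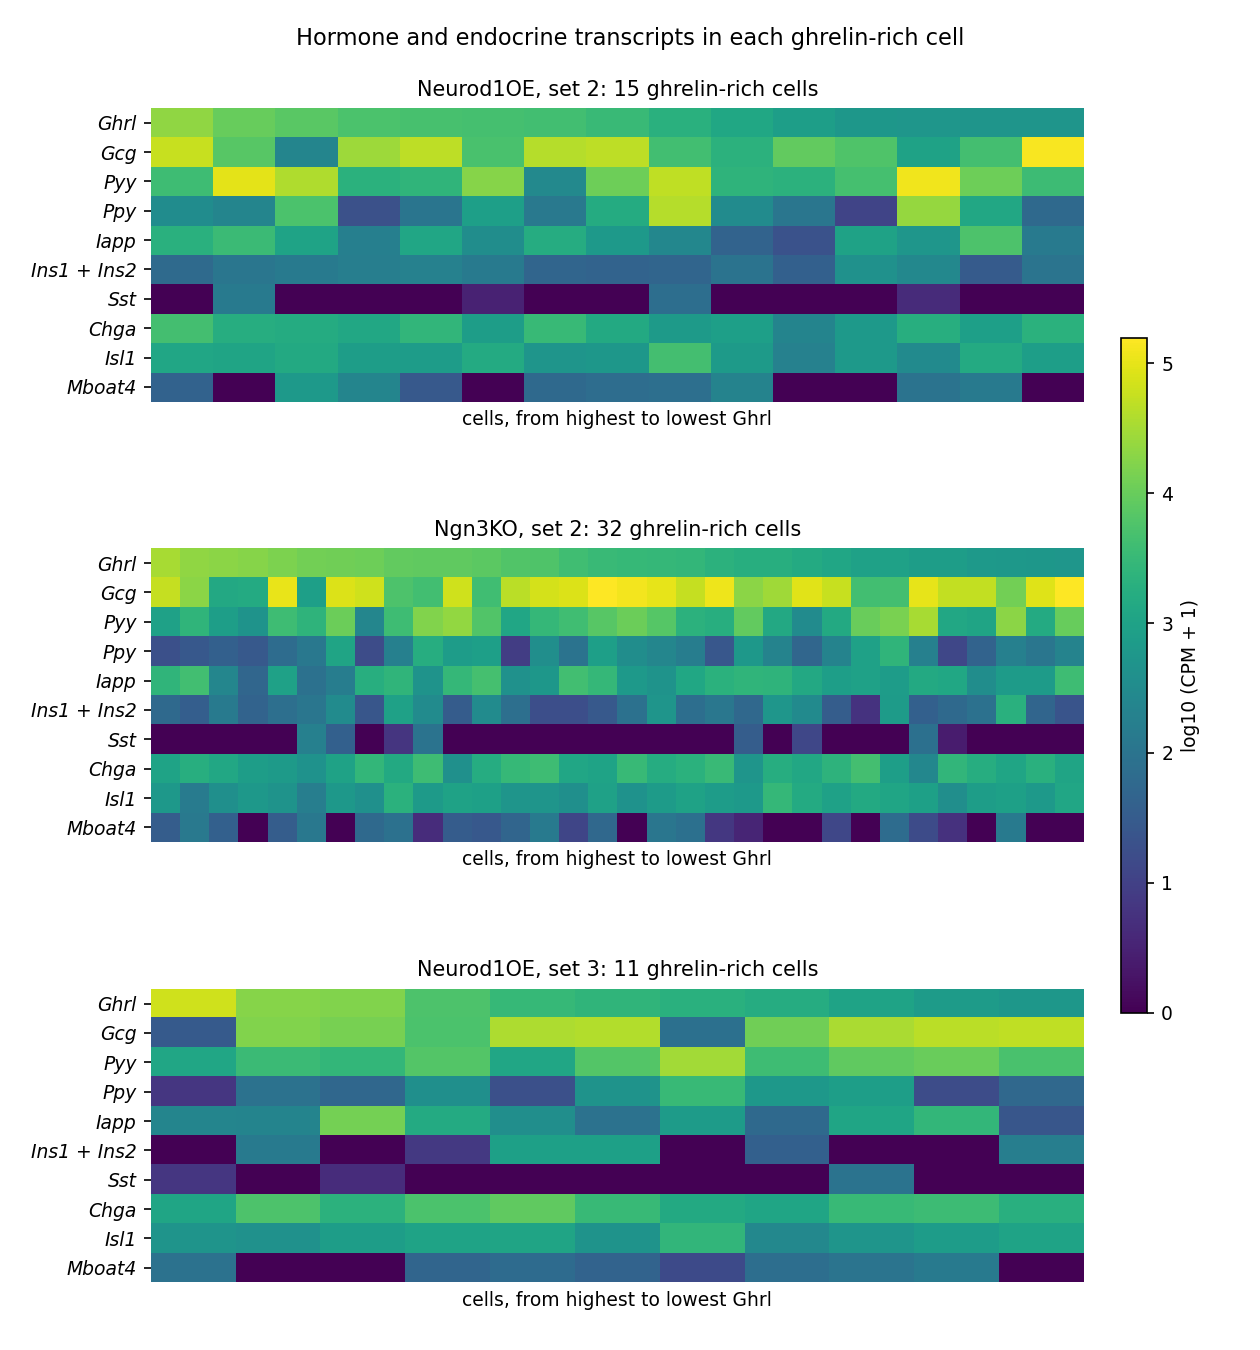
Level of each hormone transcript in every ghrelin-rich cell, in log10(CPM + 1), with cells of each group ordered by Ghrl. Gcg and Pyy are high in most columns, Ppy in 9 of 58 cells at 1000 CPM or more, and insulin in 1.

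A few cells stood apart from this pattern and are named after their values were seen. The 5 cells with less than 1000 CPM of Gcg all held Pyy. The cell with the most Ghrl, a Neurod1OE cell of set 3 at 66866 CPM, had 28.7 CPM of Gcg and 1182 CPM of Pyy, and it supplied 69.4% of the Ghrl reads of its class in that set. An Ngn3KO cell of set 2 had 12191 CPM of Ghrl with 846 CPM of Gcg and 2383 CPM of Pyy. The other 3 were dominated by peptide YY, which reached 121423, 37330 and 30738 CPM beside 527, 7236 and 1989 CPM of Ghrl. Pyy exceeded Gcg in 16 of the 58 cells in all. A further Neurod1OE cell of set 2 held 41684 CPM of Ppy and 50830 CPM of Pyy beside 1990 CPM of Ghrl.

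The acylating enzyme accompanied ghrelin in most but not all cells. Mboat4 lies at chr8:34115030-34125182 on the plus strand, overlapping the predicted gene Gm39158 on the other strand. In Neurod1OE cells of set 2 it ran from 0 through a median of 59.1 to 645 CPM in ghrelin-rich cells, in Ngn3KO cells from 0 through 20.5 to 134.3 CPM, and in set 3 from 0 through 48.04 to 132.3 CPM. The median glucagon cell was at 0 in all 3 groups, although single ones reached 227, 454 and 150 CPM, so the ranges overlapped. At least 10 CPM was present in 10 of 15 ghrelin-rich cells (66.7%), 19 of 32 (59.4%) and 8 of 11 (72.7%). The same level was present in 21%, 26.3% and 26.1% of glucagon cells, and in 3 of 29 (10.3%) Cpa1-rich Ngn3KO cells of set 3. The summed level was 47.04 CPM against 16.6 CPM in set 2, a log2 ratio of 1.45, and 53.1 against 26.4 CPM in set 3, a log2 ratio of 0.98. By genotype in set 2 the log2 ratio was 2.23 in Neurod1OE and 0.70 in Ngn3KO cells.

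Enzymes that cut and finish the hormone were less distinct. Of 9 genes of ghrelin synthesis and acylation, all measured, 2 (Ghrl and Mboat4) were at least 2-fold higher in set 2, and 3 (Ghrl, Pcsk1 and Furin) in set 3, with none lower by that factor. Measured genes are those with 10 CPM or more in the sum, and reads in 10% of cells or more, in 1 class at least. Pcsk1, the convertase that cuts proghrelin, stood at 134.1 CPM in ghrelin-rich against 89.2 CPM in glucagon cells of set 2 and at 190 against 52.3 CPM in set 3. Pcsk2, the convertase of alpha cells, had log2 ratios of -0.41 and -0.51. The list's median log2 ratio was -0.04 in set 2 and 0.26 in set 3, beside 0.01 and 0.09 over all measured genes. Ghrl chose the cells, so its own place in these counts and medians carries no information. Without it, 1 of 8 genes was higher in set 2 and 2 of 8 in set 3, beside 3.42% and 12.6% of all genes. The medians were then -0.06 and 0.22.

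Other genes tied to ghrelin cells in background knowledge were higher in part. From a list of 16, 10 were measured in set 2. Of these, 6 were at least 2-fold higher (Ghrl, Mboat4, Anpep, Irs4, Vtn and Cdkn1a) and none lower, with a median log2 ratio of 1.40. Over all genes, 3.42% of 10088 were at least 2-fold higher in set 2 and 2.63% lower. In set 3, 9 were measured and 5 were higher (Ghrl, Anpep, Arg1, Card10 and Vtn), beside 12.6% of 10376 genes higher and 9.54% lower. Since Ghrl chose the cells, its own place in these counts and medians carries no information. Without it the list's median was 1.36 in set 2 and 1.08 in set 3, and within set 2 it was 1.40 for Neurod1OE and 0.30 for Ngn3KO. In cells of set 2 without Gm12338, 3 of 7 measured were higher and the median was -0.06. Irs4, an insulin receptor substrate, stood at 22.4 against 0.869 CPM in set 2, but its log2 ratio was 0.61 within Neurod1OE cells. Vtn, encoding vitronectin, was present in 4 of 47 ghrelin-rich cells of set 2 and 2 of 11 of set 3 only, and its log2 ratio was -2.35 within Ngn3KO cells.

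Acot7, an acyl-CoA thioesterase, had a wide gap of summed reads in each group, but few cells carried it. It lies at chr4:152178134-152271855 on the plus strand. Its sum was 46.9 against 3.36 CPM in Neurod1OE and 34.1 against 1.25 CPM in Ngn3KO cells of set 2, and 58.2 against 1.32 CPM in Neurod1OE cells of set 3. At least 10 CPM was present in 4 of 15, 8 of 32 and 1 of 11 ghrelin-rich cells, and in 5.00%, 3.51% and 4.35% of glucagon cells. Every group's median was 0. The top cell supplied 76.1%, 37.03% and 95.8% of the class's reads, and without each class's top cell the log2 ratio in set 3 was 0.76 in place of 4.71. Acot7 was among the 21 genes at least 2-fold higher in all 3 groups and was singled out after its values were seen. Acsl1 and its relatives, which activate fatty acids for use by enzymes such as the acyltransferase, did not follow this. In a list of 14 genes of fatty acid activation and oxidation, 12 were measured in each set. None was 2-fold apart in set 2, while in set 3 Acsl3 was higher (22.3 against 6.50 CPM) and Fabp1 lower (4.03 against 10.4 CPM). In set 3, 12.6% of all genes were higher and 9.54% lower.

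Beyond the hormone and its enzyme, 71 of 9407 genes measured in both sets were at least 2-fold higher in ghrelin-rich cells of each set (0.755%), 48 were lower in each (0.51%), and 69 went opposite ways. The 71 were 20.6% of the genes higher in set 2 and 5.42% of those higher in set 3, and the 48 were 18.1% and 4.85% of those lower. With the 3 groups taken apart, 21 of 9126 genes were higher in each (0.23%) and 21 lower in each (0.23%). Genes are named below when they also reached 50 CPM in the sum and 10 CPM in at least 50% of cells of the higher class in both sets. This left 13 higher genes, of which the leading 12 were taken, and 8 lower ones.

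Rcn3, encoding an endoplasmic reticulum calcium-binding protein of the reticulocalbin family, ranked first among the higher genes after Ghrl. It ran from 5.21 through a median of 150.8 to 1356 CPM in ghrelin-rich Neurod1OE cells of set 2, from 0 through 197.5 to 597 CPM in Ngn3KO cells, and from 29.4 through 103.1 to 742 CPM in set 3. The median glucagon cell had 22.9, 19.95 and 22.4 CPM, so the medians were separated although the ranges overlapped. At least 10 CPM was present in 43 of 47 ghrelin-rich cells of set 2 and in 11 of 11 of set 3. The log2 ratio was 1.64, 1.93 and 2.15 in the 3 groups. In set 2 the sum was 223 CPM (counting interval 217 to 229 CPM) against 60.4 CPM (59.1 to 61.8 CPM).

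Vkorc1, encoding the vitamin K epoxide reductase, had medians of 38.6, 54.95 and 41.3 CPM in ghrelin-rich against 15.2, 17.2 and 9.94 CPM in glucagon cells of the 3 groups. Its log2 ratio was 1.54 in set 2 and 1.47 in set 3, the latter 0.84 without the top cell of each class. Anpep, encoding aminopeptidase N, stood at 136.7 against 42.6 CPM in set 2 and 238 against 104.6 CPM in set 3. In set 3 its median cell did not follow the sum, with 56.3 CPM in ghrelin-rich and 81.1 CPM in glucagon cells, and without the top cells its log2 ratio was 0.42 in place of 1.18.

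Some of the higher genes encode secreted serum proteins. Serpina1c, a mouse alpha-1-antitrypsin gene, reached at least 10 CPM in all 58 ghrelin-rich cells. It ran from 17.7 through 110.5 to 359 CPM in Neurod1OE cells and from 13.4 through 141.3 to 1054 CPM in Ngn3KO cells of set 2, and from 15.7 through 150.4 to 570 CPM in set 3, against glucagon cell medians of 22.2, 41.8 and 46.1 CPM. Its copies Serpina1a and Serpina1e had log2 ratios of 1.63 and 1.16 in set 2 and of 1.39 and 1.44 in set 3. These near-identical copies share reads, and the sources used here do not say how the counting split them, so which copy is transcribed is uncertain. Gc, encoding the vitamin D binding protein, stood at 101.4 against 39.8 CPM in set 2 and 195.3 against 41.9 CPM in set 3. Its log2 ratio was 2.40 in Neurod1OE but 0.01 in Ngn3KO cells of set 2. Sepp1, encoding selenoprotein P, had log2 ratios of 1.06 and 1.38. In the list of 12 hepatic and serum proteins drawn up apart from this ranking, 3 of 9 measured were higher in set 2 (Serpina1a, Serpina1b and Rbp4, the retinol carrier) and 1 of 10 in set 3 (Serpina1a), the latter below the 12.6% of all genes, with medians of 0.52 and 0.25. The higher share of all genes in set 2 was 3.42%. Ttr, encoding transthyretin, had log2 ratios of 0.16 and 0.07.

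The remaining higher genes were Maged2, Gnptg and Brip1os. Maged2, of the MAGE family, stood at 384 against 155.6 CPM in set 2 and 338 against 163.7 CPM in set 3. Its log2 ratio was past 2-fold in 10 of 13 alternative settings in set 2 and 6 of 11 in set 3, with lows of 0.61 and 0.45. Gnptg, a subunit of the enzyme that tags lysosomal proteins, stood at 223 against 107.8 CPM and 295 against 130.5 CPM. Brip1os, an antisense RNA that overlaps Ints2 and Med13, had log2 ratios of 1.24 and 1.16, but 0.18 in Neurod1OE cells of set 2, and its reads cannot be told apart from those of the genes opposite without knowing the strand setting. Lrrtm3, of the leucine-rich repeat transmembrane family, and R3hdml were also at least 2-fold higher in all 3 groups. Both were singled out after their values were seen, at log2 ratios of 2.59 and 2.37 in set 2 and 2.22 and 2.49 in set 3. At least 10 CPM of Lrrtm3 was present in 23 of 47 and 3 of 11 ghrelin-rich cells, and of R3hdml in 15 of 47 and 4 of 11.

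**Figure D3:**
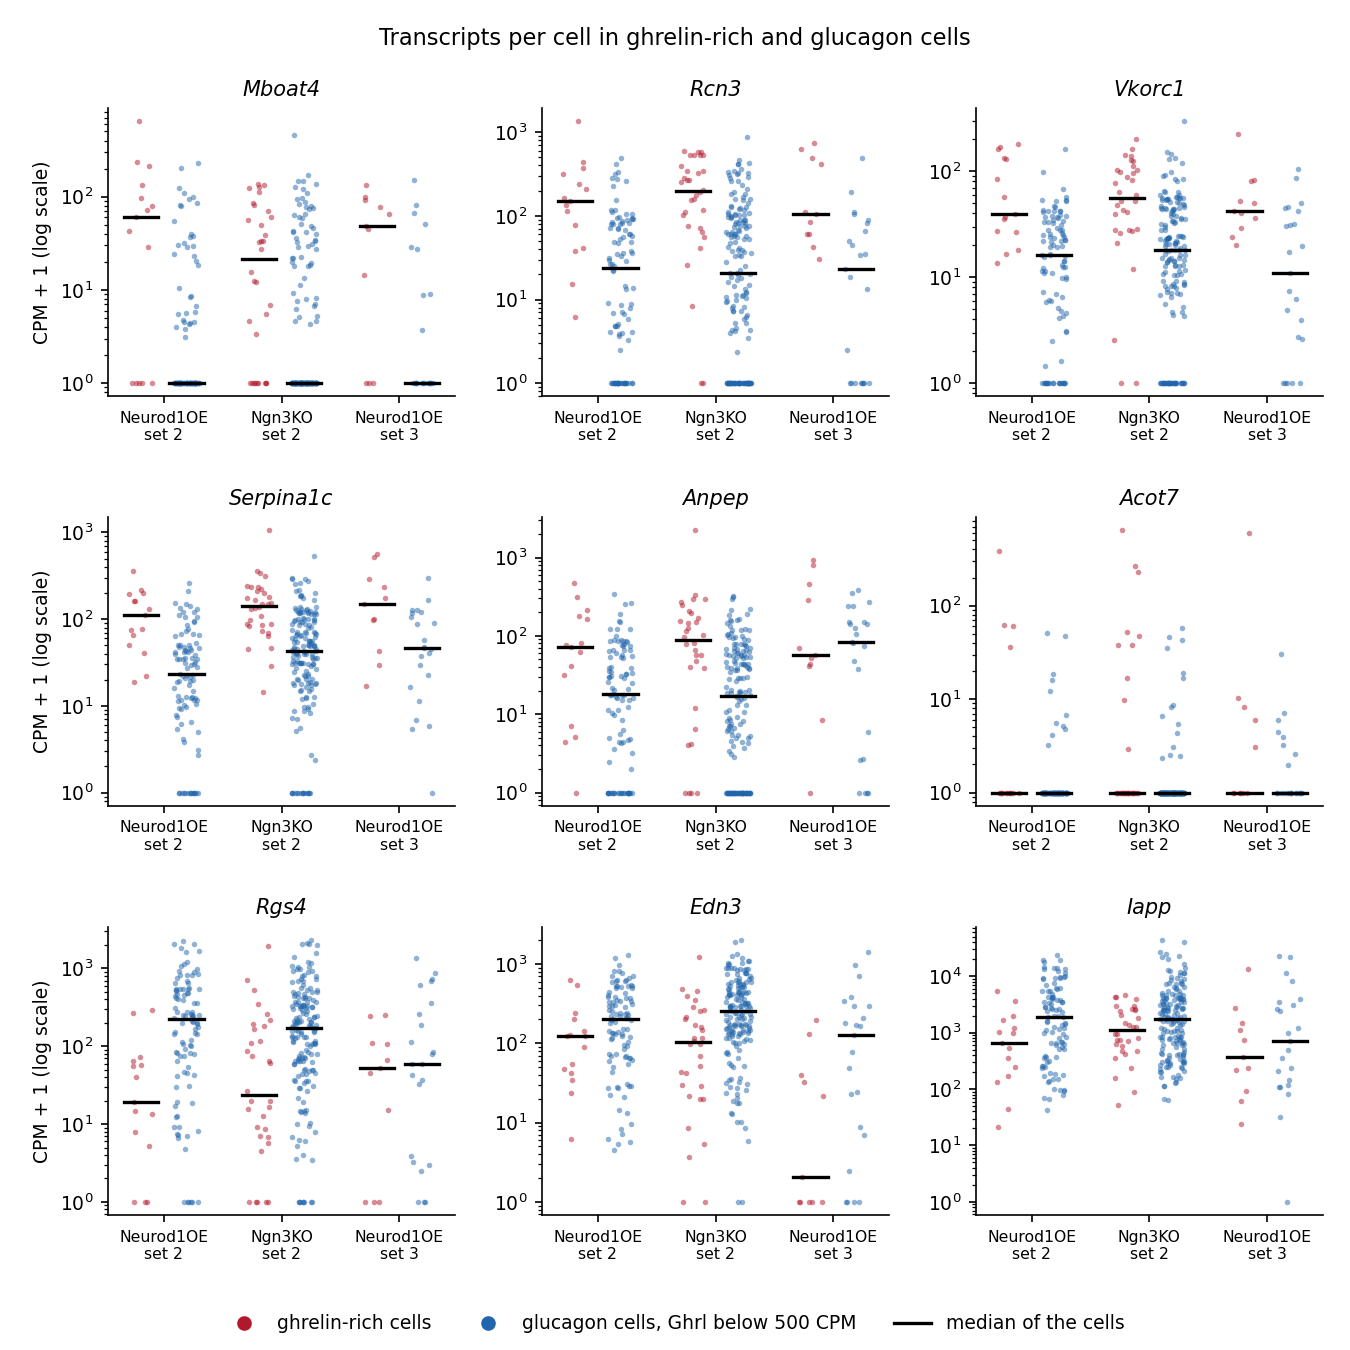
CPM of 9 genes in single ghrelin-rich and glucagon cells of the 3 groups that hold both, on a log axis, with a bar at each median. Rcn3 and Serpina1c are shifted upward in every group, Acot7 rests on few cells, and Iapp is lower with overlapping ranges.

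Rgs4, a regulator of G-protein signalling, ranked next after Ins2 among the lower genes. Its median was 18.2 CPM in ghrelin-rich against 220 CPM in glucagon cells of the Neurod1OE genotype in set 2 and 22.5 against 173.1 CPM in the Ngn3KO genotype. In set 3 the medians were close, at 52.3 against 59 CPM, while the sums were 84.3 against 254 CPM. The log2 ratio was -1.90 in set 2 and -1.58 in set 3. Edn3, encoding the secreted peptide endothelin 3, stood at 135.1 against 298 CPM in set 2 and 32.5 against 213 CPM in set 3, and it was at least 2-fold lower in all 3 groups. Cldn11, a tight junction claudin, stood at 44.8 against 100.2 CPM and 7.40 against 84.7 CPM.

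Several of the lower genes are known from beta cells. Iapp stood at 1313 against 3661 CPM in set 2 and 1094 against 3713 CPM in set 3, with medians of 651 against 1873 CPM, 1110 against 1769 CPM and 376 against 708 CPM in the 3 groups. Slc30a8, the zinc transporter of insulin granules, stood at 73.1 against 170.4 CPM and 20.6 against 115.9 CPM. Ins2 had log2 ratios of -4.22 and -5.75, but single glucagon cells supplied 63.8% and 91.5% of that class's reads. In the list of 15 beta cell genes, 6 of 12 measured were lower in set 2 (Ins1, Ins2, Iapp, Slc30a8, Nnat and Sytl4), 5 of 11 in set 3 (Ins2, Pdx1, Iapp, G6pc2 and Slc30a8), and none higher in either. The lower share of all genes was 2.63% in set 2 and 9.54% in set 3. The median of Ins1 plus Ins2 was 79.8 CPM in ghrelin-rich and 93.6 CPM in glucagon cells of set 2, and 6.41 against 29.7 CPM in set 3. Over 13 alternative settings in set 2, the log2 ratio ran from -5.05 to -0.63 for Ins1 and from -4.26 to 0.41 for Sytl4. Those of Iapp and Nnat stayed past 2-fold in all 13. Spink4, a secreted protease inhibitor, and Fos, an immediate early factor, completed the lower genes with log2 ratios of -1.17 and -1.16 in set 2 and of -1.59 and -2.16 in set 3. Hs3st1, a heparan sulfate sulfotransferase, and Cntn1, a contactin, were at least 2-fold lower in all 3 groups and were singled out after their values were seen. Their log2 ratios were -2.20 and -2.04 in set 2, and in set 3 they were -1.34 and -2.52.

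**Figure D4:**
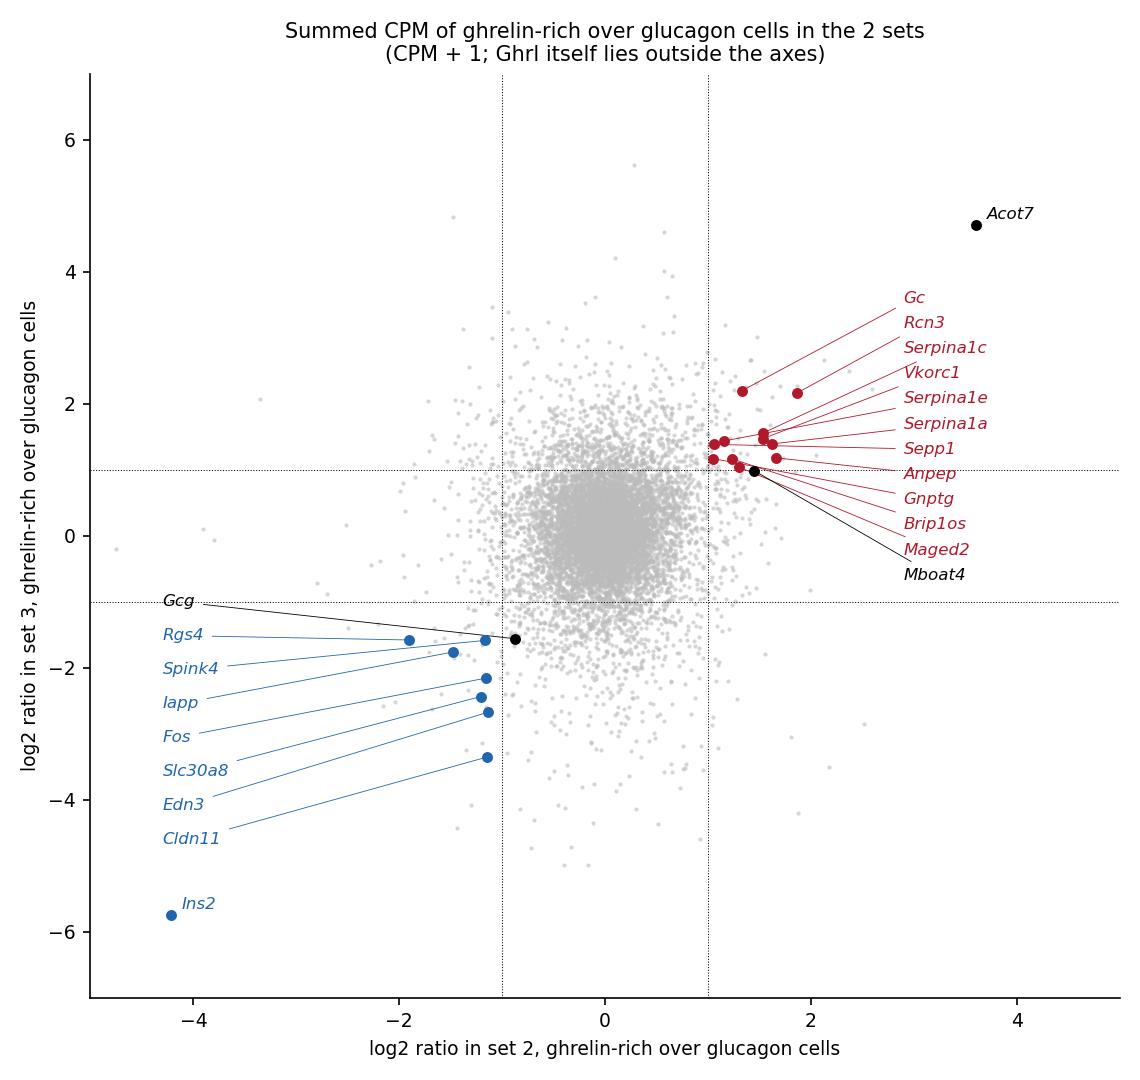
Log2 ratio of summed CPM, ghrelin-rich over glucagon cells, in set 2 (x axis) and set 3 (y axis) for the 9407 genes measured in both, with dotted lines at 2-fold. The named higher genes sit in the upper right corner and the lower ones in the lower left, Mboat4 lies at 1.45 and 0.98, and Ghrl, beyond the axes, is the 1 gene not drawn.

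Alpha cell and pan-endocrine identity genes were similar in both kinds of cell. Of 16 pan-endocrine genes, all measured, none was 2-fold apart in either set. Of 13 measured alpha cell genes none was 2-fold apart in set 2, and 1, Gcg itself, was lower in set 3. Within Neurod1OE cells of set 2, 1 pan-endocrine and 2 alpha cell genes were lower, beside 9.64% of all genes. Within Ngn3KO cells of set 2 none of either list was 2-fold apart. Pax6, a factor of all islet endocrine cells, stood at 598 against 646 CPM and 495 against 513 CPM. Irx1 and Irx2, homeobox factors of alpha cells, had log2 ratios of -0.24 and 0.03 in set 2 and of -0.49 and -0.19 in set 3. Fev, a marker of endocrine precursors, stood at 55.97 against 90.2 CPM and 71.5 against 103.6 CPM, which is less than 2-fold apart in both sets.

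The same held for most transcription factors. Of 30 islet transcription factors, 21 were measured in set 2 and none was 2-fold apart with the genotypes pooled. Within Neurod1OE cells of set 2, 1 of 23 was higher and 3 were lower, beside 7.05% and 9.64% of all genes. Within Ngn3KO cells none was higher and 2 of 21 were lower, beside 4.53% of all genes lower. In set 3, 24 were measured, 1 was higher (Neurog3) and 3 were lower (Pdx1, Hhex and Nkx6-2). Over all genes of set 3, 12.6% were higher and 9.54% lower. Pax4 was not measured in either set. Neurod1, whose overexpression is part of both genotypes, stood at 266 against 321 CPM in set 2 and 259 against 255 CPM in set 3. The lowest ghrelin-rich cell of set 2 had 16.7 CPM. Neurog3, the gene deleted in the Ngn3KO genotype, was near 0 in ghrelin-rich cells of both genotypes of set 2. It had 7 reads, or 0.793 CPM (0.319 to 1.64 CPM), in the Neurod1OE cells and 11 reads, or 0.831 CPM (0.415 to 1.49 CPM), in the Ngn3KO cells, so its level does not check the genotype labels. In set 3 it stood at 18.7 against 1.05 CPM, from 3 of 11 ghrelin-rich cells with at least 10 CPM.

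**Figure D5:**
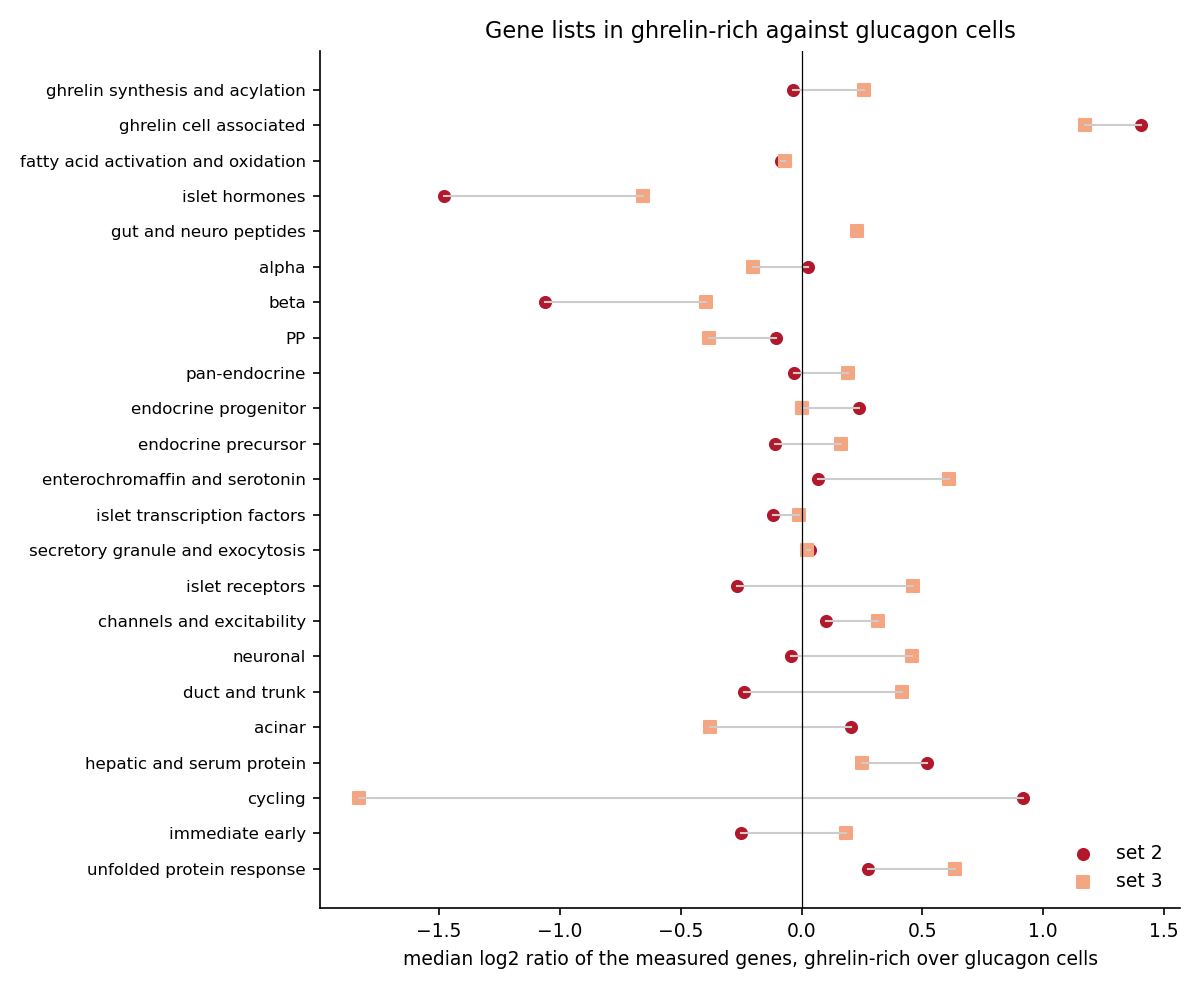
Median log2 ratio of each gene list, ghrelin-rich over glucagon cells, in set 2 (circles) and set 3 (squares), for lists with at least 3 measured genes in each set. The list of genes associated with ghrelin cells, which includes Ghrl itself, lies at 1.40 and 1.17, the beta cell list at -1.06 and -0.39, and the cycling list at 0.92 and -1.83, with Neurod1OE cells of set 2 alone at -0.29.

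Cycling genes differed between the genotypes of set 2. Of 12 cycling genes, 4 were higher in ghrelin-rich cells of set 2 (Cenpf, Birc5, Mcm5 and Tyms) with a median log2 ratio of 0.92, whereas 6 of 8 measured were lower in set 3 with a median of -1.83. Of all genes, 3.42% were higher in set 2 and 9.54% lower in set 3. Within set 2, 10 of the 12 cycling genes were higher in Ngn3KO cells, beside 5.86% of all genes, with a median of 1.80. In Neurod1OE cells none of the 12 was higher and 1 was lower, with a median of -0.29. Without the 1 Ngn3KO glucagon cell of set 3, 3 of 5 measured were lower there, with a median of -1.70, and Mki67 had a log2 ratio of 1.10 in place of -1.22. At least 100 CPM of Mki67, a protein of dividing cells, was held by 1 of 15 Neurod1OE and 9 of 32 Ngn3KO ghrelin-rich cells of set 2 and by 1 of 11 in set 3. Of 10 measured genes of the unfolded protein response, none was 2-fold apart in set 2 and 3 were higher in set 3, namely the chaperones Calr (916 against 452 CPM), Pdia4 (443 against 166.3 CPM) and Sdf2l1 (96.2 against 40.02 CPM). In set 2 these had log2 ratios of 0.67, 0.61 and 0.98, and the list's medians were 0.27 and 0.64. The higher share of all genes in set 3 was 12.6%. Of 21 genes of secretory granules and exocytosis, 2 of 21 measured (Sytl4 and Slc30a8) were lower in set 2 and 1 of 20 (Slc30a8) in set 3. The lower shares of all genes were 2.63% and 9.54%.

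Between genotypes, ghrelin-rich cells of set 2 differed in many genes, but 15 cells stood against 32. Their depth also differed, with a median of 703996 reads in Neurod1OE and 338523 in Ngn3KO ghrelin-rich cells. The part of depth in these differences was not tested. Ngn3KO cells were at least 2-fold higher in 10.6% of 10295 measured genes and lower in 11.3%, against 1.01% and 2.45% of 10018 genes among the more numerous glucagon cells. Ghrl stood at 6952 CPM in Ngn3KO and 4243 CPM in Neurod1OE ghrelin-rich cells, while the medians were 3209 and 3279 CPM. Gcg stood at 57156 against 27784 CPM, a log2 ratio of 1.04. That ratio was 3.65 among cells with Gm12338, where female Ngn3KO cells stood against male Neurod1OE cells. It was 0.41 among cells without Gm12338, all called female, and 0.35 among glucagon cells. Mboat4 was the other way, at 31.6 against 70.3 CPM, a log2 ratio of -1.13, against 0.40 among glucagon cells.

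The summed reads of the peptides of pancreatic polypeptide cells were lower in Ngn3KO ghrelin-rich cells, and the medians differed less. Ppy stood at 346 against 6446 CPM and Pyy at 5821 against 30401 CPM, log2 ratios of -4.22 and -2.38, against 0.47 and 0.00 among glucagon cells. The per-cell ranges overlapped, at 7.64 to 2564 CPM against 10.7 to 41684 CPM for Ppy. A single Neurod1OE cell supplied 56.3% of the Ppy reads of its group, and the medians were 183.5 and 324 CPM. For Pyy a single Neurod1OE cell supplied 39.4% of the reads of its group, and the medians were 3409 and 4581 CPM. The Neurod1OE cells highest in Ppy and Pyy held Gm12338 and were called male. Among cells without Gm12338, all called female, the highest Ppy was 860.7 CPM in Ngn3KO and 1592 CPM in Neurod1OE cells. The highest Pyy there was 23100 against 11334 CPM. In these sums genotype, sex and the Gm12338 kind thus cannot be told apart. Among the genes that ranked highest by the same limits of level and share of cells, Spaca6, a sperm membrane protein gene, stood at 135.9 against 16.2 CPM and Irf1, an interferon response factor, at 63.6 against 9.41 CPM. Adamts1, a secreted metalloprotease, stood at 2.34 against 76.95 CPM and Clps, encoding pancreatic colipase, at 89.9 against 960 CPM, of which 1 cell supplied 50.4%. Of 17 acinar genes 6 were measured, and all 6 were at least 2-fold lower in Ngn3KO than in Neurod1OE ghrelin-rich cells. Among glucagon cells 5 of 7 measured were lower. The lower shares of all genes were 11.3% among ghrelin-rich and 2.45% among glucagon cells. Their summed levels ran from 5.91 to 666 CPM in Ngn3KO and from 19.5 to 6526 CPM in Neurod1OE ghrelin-rich cells, and their part in the differences between genotypes was not tested. Higher Rcn3, Serpina1c and Vkorc1 in ghrelin-rich than in glucagon cells was seen within each genotype, and between the genotypes their log2 ratios were 0.58, 0.38 and 0.16.

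Within the ghrelin-rich cells, the rank order of Ghrl was set beside that of the other genes, as a description. Over the 47 cells of set 2, of both genotypes, Spearman's rho of Ghrl was 0.44 with Serpina1c, 0.42 with Vkorc1, 0.36 with Acot7 and 0.34 with Anpep. It was 0.25 with Rcn3, 0.20 with Mboat4, 0.0065 with Serpina1a, -0.14 with Gcg and -0.0042 with the cell's total reads. Over the 11 cells of set 3 it was 0.60 with Vkorc1, 0.52 with Serpina1a, 0.12 with Anpep, 0.09 with Rcn3 and 0.08 with Serpina1c. There it was 0.05 with Acot7, -0.24 with Mboat4, -0.62 with Gcg and -0.51 with total reads. The rank correlations with Serpina1c, Acot7, Anpep and Mboat4 were thus not of like size in the 2 sets.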

How the data were processed

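Single cells of E15.5 fetal pancreas were analysed, 1 cell per well, from raw read counts per gene that the authors deposited as 2 matrices, 1 per title set. Per the submitters' processing notes, reads were trimmed with Trimmomatic 0.39, aligned with HISAT2 2.1.0 and counted with featureCounts 2.0.0 on mm10. The annotation and strand setting are not given in the sources used here. Of 40824 genes, 89.2% matched GENCODE M21, used for coordinates. The 92 ERCC spike-in rows were left out.

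CPM was computed per cell on plain totals. Because a genotype in a set is 1 sample, counts were summed per class and compared as log2 ratios after adding 1 CPM, with no test, and genes were called at 2-fold. Named genes were a fixed set of hormones and factors, the leading higher and lower genes of both sets as ranked by the smaller ratio, up to 4 genes per list, and up to 6 each way between genotypes. The members, 29 gene lists and rules were chosen with earlier results of these data known. No doublet caller was run. Sums carry exact Poisson and shares exact Clopper-Pearson 95% intervals. A count of 0 allows 3 cells of the total. Alternatives changed the limits, weights, pseudocount, filter, scaling (edgeR 4.0.16, DESeq2 1.42.0), genotype and block. The script was tested on simulated data. Python 3.11.15 with numpy 2.4.6, scipy 1.17.1 and pandas 2.3.3 was used.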

Additional observations from a re-analysis of the deposited data

Results flagged for a closer look

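In 3 cells both Ghrl and Cpa1 passed their limits, so they were left out of the ghrelin-rich cells. A pair of them were Neurod1OE cells of set 3, with 8275 and 13518 CPM of Ghrl beside 10030 and 2016 CPM of Cpa1. The other was an Ngn3KO cell of set 3 with 1176 CPM of Ghrl and 20104 CPM of Cpa1. Whether these wells held more than 1 cell was not tested.

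In set 2, the peptides of pancreatic polypeptide cells differed in direction between the genotypes, and the difference itself was not tested. The log2 ratio of Ppy, ghrelin-rich over glucagon cells, was 2.42 among Neurod1OE cells but -2.27 among Ngn3KO cells. The ratio of Pyy was 1.16 and -1.23 in the same order. Of the reads of all ghrelin-rich cells of set 2, a single cell supplied 52.1% for Ppy and 30.6% for Pyy. The Neurod1OE ghrelin-rich cells highest in both held Gm12338 and were called male, while no Ngn3KO cell of set 2 was called male.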

How the results depend on the processing

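The ghrelin-rich shares of all 4 groups moved by less than their intervals with a Ghrl limit of 250 or 1000 CPM, no Cpa1 limit, or only cells of at least 100000 reads. In set 2 the share with insulin was 0% at a Ghrl limit of 1000 CPM and the share with Iapp 70.2% at a hormone limit of 500 CPM. Ratios stayed past 2-fold in every alternative of both sets for Ghrl, Rcn3, Serpina1a, Serpina1c, Serpina1e, Lrrtm3, R3hdml, Rgs4 and Cntn1, and for no other gene named here. Shares of genes past 2-fold moved most. In set 2, 3.42% higher and 2.63% lower became 0.942% and 0.387% with 10 CPM added, 3.58% and 4.26% of 24579 genes with no filter, 1.6% and 4.38% without each gene's top cell, 7.05% and 9.64% in Neurod1OE cells, 5.86% and 4.53% in Ngn3KO cells, and 6.57% and 7.90% in cells with Gm12338, and the lower share was 4.61% in cells without it. In set 3, 12.6% and 9.54% became 6.25% and 4.26% with 10 CPM added, 13.1% and 13.2% of 19297 genes with no filter, and 8.33% higher without each gene's top cell. TMM scaling lowered all set 3 log2 ratios, which shifted by -0.12, and gave 10.5% and 11.6%. Without the set 3 cell of highest Ghrl, an alternative added after the data were seen, the shares were 13.5% and 10.1%. Between genotypes, 10.6% and 11.3% became 4.41% and 5.19% with 10 CPM added, 13.3% and 10.95% of 19418 genes with no filter, and 26.04% and 19.6% in cells with Gm12338, with 6.40% lower without top cells. Of the named genes at least 2-fold apart as reported, the log2 ratios that changed sign were, in set 2, Sst at 0.98, Mcm5 at -0.37 and Tyms at -0.22 in Neurod1OE cells, Vtn at -2.35 in Ngn3KO cells and Vtn at -0.77 and Sytl4 at 0.41 in cells without Gm12338. In set 3 they were Vtn at -0.54 at a Ghrl limit of 1000 CPM, Sst at -0.76 and Hhex at 0.0032 without top cells, Arg1 at -0.66 with Gcg of at least 1000 CPM and Mki67 at 1.10 and Birc5 at 0.069 in Neurod1OE cells. The cause was not tested. No paired analysis was possible because the results come from no test and the labels name no animal. The depth of 11 to 47 ghrelin-rich cells per set limits every share above.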
